A study of Mus musculus with 20 samples.

Results

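The 8 genes described here are nonclassical MHC class I genes, namely H2-T23, H2-T22, H2-T10, H2-Q4, H2-Q6, H2-Q7, H2-M3 and Cd1d1. They were chosen by name and found by their Ensembl identifiers among the 55335 genes listed for each library. RNA was sequenced from 20 tumours of CT26, a BALB/c mouse line derived from a colon carcinoma. The 4 groups of 5 tumours were mutant cells with anti-PD-1, mutant cells with PBS, vector cells with anti-PD-1 and vector cells with PBS. The labels call the mutant cells POLE-mutant, after the gene for the catalytic part of polymerase epsilon, which copies DNA, and the vector cells control, while the series title names CHEK2, a checkpoint kinase. Anti-PD-1 is an antibody that blocks PD-1, an inhibitory receptor of activated T cells, and PBS is the saline given in its place. The labels give no clone, mouse strain, age or dose, so an effect of the mutation and any further difference between the 2 kinds of cells cannot be told apart. Levels are FPKM as deposited (fragments scaled by transcript length and library size), and the depth of the libraries is unknown.

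Classical class I molecules show peptides of the cell's own proteins to CD8 T cells. The nonclassical molecules share their fold, and most pair with beta-2 microglobulin, but they vary little between individuals and present narrow sets of ligands. H2-T23 encodes Qa-1, which carries leader peptides of classical class I and is read by the CD94/NKG2 receptors of NK cells and CD8 T cells. H2-T10 and H2-T22 encode ligands of a subset of gamma delta T cells. H2-Q6 and H2-Q7 encode forms of Qa-2, and H2-Q4 is a further gene of the Q region. H2-M3 presents peptides with a formylated start, such as those of bacteria and mitochondria, and Cd1d1 encodes CD1d, which presents lipids to NKT cells. Interferons induce many class I genes through interferon response elements in their promoters and through the transactivator Nlrc5.

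Apart from Cd1d1, the genes lie on mouse chromosome 17 of the mm10 build, within the MHC, and are exon-intron genes whose annotated limits come from GENCODE vM21. H2-Q4 lies at chr17:35379617-35385290, H2-Q6 at chr17:35424850-35430055 and H2-Q7 at chr17:35439155-35443773, all on the plus strand. On the minus strand lie H2-T23 at chr17:36029773-36032855, H2-T22 at chr17:36037128-36042747 and H2-T10 at chr17:36115876-36121465. H2-M3 lies at chr17:37270220-37274484 on the plus strand, and Cd1d1 lies outside the MHC, at chr3:86995834-86999441 on the minus strand. The annotation calls H2-T10 a polymorphic pseudogene and the other 7 protein coding.

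Reads of such genes can be shared, because the genes are near copies. Over 1137 aligned coding bases H2-T22 and H2-T10 differed at 42, an identity of 96.3%. H2-Q6 and H2-Q7 differed at 45 of 978 aligned bases, an identity of 95.4%. The stretches below are the 120 coding bases in which each pair differed most, with the differing bases in capitals, shown because only reads over such bases can tell the pair apart. They span an intron in the genome, at chr17:36040242-36040509 for H2-T22, chr17:36118953-36119220 for H2-T10, chr17:35424937-35425223 for H2-Q6 and chr17:35439281-35439567 for H2-Q7 (mm10), and are written 5′ to 3′ on the strand of the gene.
H2-T22: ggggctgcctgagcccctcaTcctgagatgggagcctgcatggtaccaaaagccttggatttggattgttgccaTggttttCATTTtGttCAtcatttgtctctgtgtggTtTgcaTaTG
H2-T10: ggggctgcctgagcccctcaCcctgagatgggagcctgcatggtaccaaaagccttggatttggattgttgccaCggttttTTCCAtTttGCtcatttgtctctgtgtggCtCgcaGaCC
H2-Q6: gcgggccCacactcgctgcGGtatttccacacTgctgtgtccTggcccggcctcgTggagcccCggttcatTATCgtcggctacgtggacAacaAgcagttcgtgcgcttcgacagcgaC
H2-Q7: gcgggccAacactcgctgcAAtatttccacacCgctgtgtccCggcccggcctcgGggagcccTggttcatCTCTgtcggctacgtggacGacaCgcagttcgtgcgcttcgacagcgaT
Between H2-T22 and H2-T10 this stretch held 15 differing bases, and between H2-Q6 and H2-Q7 it held 14. Elsewhere runs of up to 134 bases (H2-T22 and H2-T10) and 265 bases (H2-Q6 and H2-Q7) were identical.

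Counted over whole transcripts, 42.8% of the 50-base windows of H2-T22 also occurred in another gene, mostly H2-T10 (36.6%). The shared share was 40.7% for H2-T10, 39.2% for H2-Q4, 35.0% for H2-Q6, 34.9% for H2-Q7 and 29.8% for H2-T23. Cd1d1 shared 25.1% of its windows, all with its neighbour copy Cd1d2. H2-M3 shared 0.576% and none at 100 bases, so it is the member whose value depends least on how shared reads were assigned. With 100-base windows the shares of the other 7 ran from 7.28% for H2-T23 to 17.2% for H2-Q7. The sources used here give neither the read length nor what was done with reads matching more than 1 gene. The tumours carry the BALB/c haplotype of the MHC and mm10 the C57BL/6 haplotype, which can bias the level of a polymorphic gene.

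**Figure D1:**
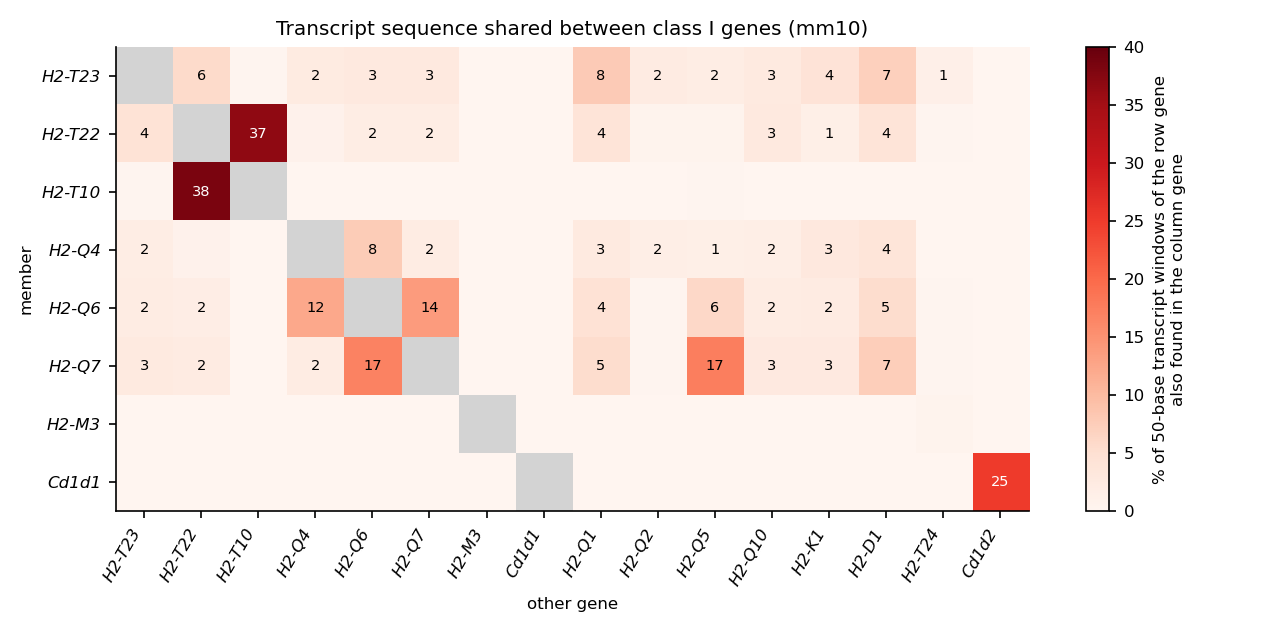
Percent of the 50-base transcript windows of each member (rows) that also occur in another class I gene (columns), from GENCODE vM21 transcripts of mm10, with values of at least 1 printed and the gene itself in grey. H2-T22 with H2-T10, and Cd1d1 with Cd1d2, share over 25%, H2-Q7 shares 17% each with H2-Q6 and H2-Q5, and the row of H2-M3 is almost empty.

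Promoters are shown because the question across the 4 groups is which of these genes move with interferon. RefSeq's table (GRCm38.p6, 250 bases before to 50 after each gene's start) held 6 of the 8 members, without H2-T10 and Cd1d1. Each was searched on both strands for the class I interferon response element core GTTTCACTT, the longer ISRE (AGTTTC, any 2 bases, TTTC), the kappaB site (GGGG, then ATT, then CCCC), site alpha TGATGAC, the Y box CCAAT and the GAS site TTCNNNGAA. The windows below run from 205 to 26 bases before the start, 5′ to 3′ on the strand of the gene, with matches other than GAS in capitals. They lie at chr17:36032727-36032906 (H2-T23, minus strand), chr17:36042768-36042947 (H2-T22, minus strand), chr17:35424645-35424824 (H2-Q6, plus strand) and chr17:37270029-37270208 (H2-M3, plus strand).
H2-T23: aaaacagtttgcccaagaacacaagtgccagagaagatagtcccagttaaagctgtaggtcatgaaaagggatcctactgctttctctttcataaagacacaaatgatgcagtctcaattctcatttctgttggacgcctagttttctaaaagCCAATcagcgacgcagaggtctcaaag
H2-T22: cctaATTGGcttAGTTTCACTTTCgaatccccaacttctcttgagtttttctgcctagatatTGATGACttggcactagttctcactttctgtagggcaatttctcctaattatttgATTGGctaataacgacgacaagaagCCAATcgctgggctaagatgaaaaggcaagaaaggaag
H2-Q6: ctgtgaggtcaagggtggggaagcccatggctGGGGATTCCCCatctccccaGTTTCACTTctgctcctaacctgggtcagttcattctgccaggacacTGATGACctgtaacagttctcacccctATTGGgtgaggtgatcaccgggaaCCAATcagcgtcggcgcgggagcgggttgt
H2-M3: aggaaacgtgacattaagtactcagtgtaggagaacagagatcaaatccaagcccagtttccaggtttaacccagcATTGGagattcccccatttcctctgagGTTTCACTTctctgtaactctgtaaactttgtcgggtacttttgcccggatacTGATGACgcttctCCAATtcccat
The core GTTTCACTT occurred in the promoters of H2-T22, H2-Q4, H2-Q6, H2-Q7 and H2-M3, and in those of the classical genes H2-D1 and H2-K1, against 0.399% of all 32851 promoters. H2-T22 alone of the 6 also held the ISRE (0.271% of all promoters), which overlaps its core, and H2-Q6 alone of the 6 held the kappaB site (0.0304%). Site alpha occurred in the same 5 members as the core (3.23% of all promoters) and the Y box in all 6 (37.4%). A GAS match lay in the H2-M3 promoter alone of the 6 (8.30%), across the edge of the printed window. In the H2-T23 window only the Y box was found, which says only that the other letters are not in this window. Letters that match are a description and not a site of binding.

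**Figure D2:**
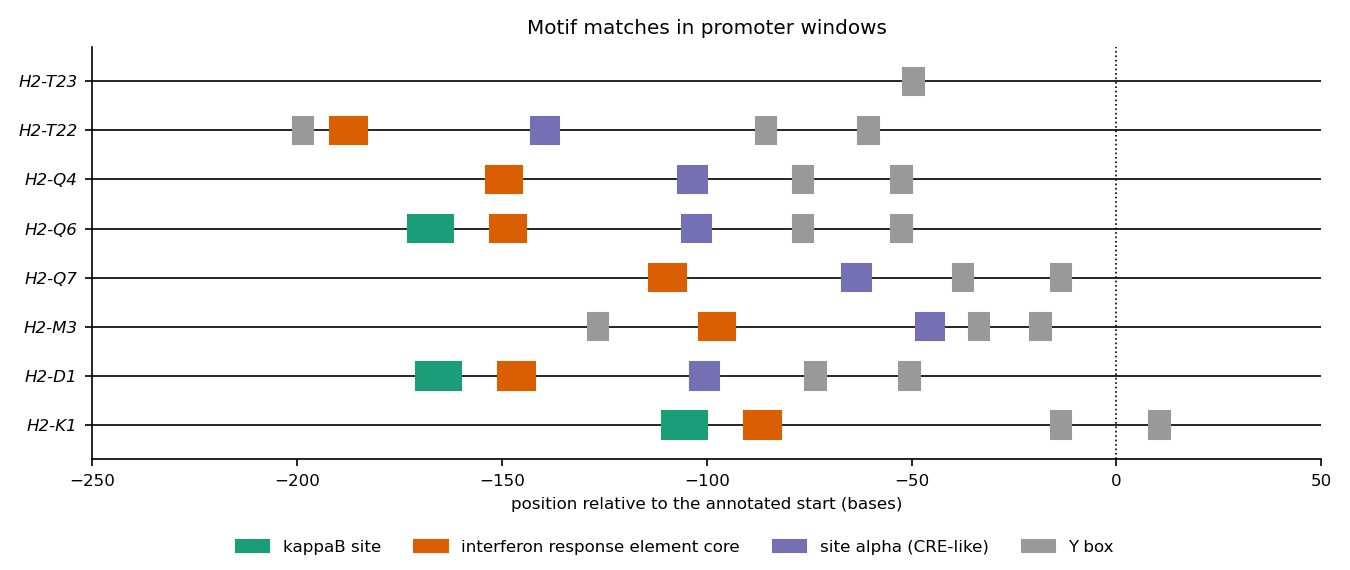
Motif matches in the RefSeq promoter windows of 6 members and of H2-D1 and H2-K1, by position relative to the annotated start in bases (the start is the dotted line), with boxes drawn to scale. The interferon response element core stands upstream of site alpha and the last Y box in H2-T22, H2-Q4, H2-Q6, H2-Q7, H2-M3 and H2-D1, while H2-T23 holds a Y box alone.

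Some libraries and marker genes touch every result below. Totals of FPKM ran from 328740 to 566913 per library, and 11182 to 13769 genes reached 1 FPKM. The 3 libraries with the lowest mean correlation to all others were mutant anti-PD-1 replicates 1 and 2 and vector anti-PD-1 replicate 1, at mean Spearman values of 0.748, 0.835 and 0.776 against 0.899 to 0.930 in the other 17. All 3 carry an animal identifier of M and a number. The other style is a number alone, and the labels do not say what it marks. Summed levels of 8 T cell markers were 70.1 to 115 FPKM in mutant anti-PD-1 tumours, 1.53 to 34.3 in mutant PBS, 3.27 to 9.75 in vector anti-PD-1 and 1.03 to 2.85 in vector PBS tumours. For 8 macrophage markers the sums were 1600 to 4070, 385 to 1060, 433 to 1100 and 542 to 841 FPKM in the same groups. Skeletal muscle markers, which tissue beside a tumour can bring, summed to 90.2 to 1550 FPKM in mutant anti-PD-1 tumours, 0.59 to 1010 in mutant PBS, 0.896 to 510 in vector anti-PD-1 and 1.44 to 8.57 in vector PBS tumours. Markers of epithelium, which a colon carcinoma would carry, were low in every group, with sums of 8 genes of 1.84 to 7.95 FPKM in mutant anti-PD-1, 7.64 to 16.2 in mutant PBS, 12.5 to 27.4 in vector anti-PD-1 and 12.1 to 22.1 in vector PBS tumours, and Cdx2 listed at 0 in all 5 mutant anti-PD-1 and 4 of 5 mutant PBS tumours, against means of 0.512 ± 0.21 FPKM in vector anti-PD-1 and 0.539 ± 0.221 FPKM in vector PBS tumours (SD, n = 5 each). The part of these cells and libraries in the results was not tested beyond the fits named.

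H2-T23, the Qa-1 gene, had 135, 100.1, 63.7, 64.7 and 75.7 FPKM in mutant anti-PD-1 tumours (replicates 1 to 5), against 8.21, 12.0, 43.2, 13.6 and 7.95 FPKM in mutant PBS tumours. In vector anti-PD-1 tumours it had 18.4, 16.2, 14.5, 35.8 and 13.8 FPKM, against 15.4, 12.0, 10.6, 7.15 and 8.54 FPKM in vector PBS tumours. Every mutant anti-PD-1 tumour lay above all 15 others, and 1 tumour each of mutant PBS (replicate 3) and vector anti-PD-1 (replicate 4) stood apart from the rest of its group. The means were 87.8 ± 30.1 FPKM in mutant anti-PD-1 and 17.0 ± 14.8 FPKM in mutant PBS tumours (SD, n = 5 each), a ratio of 5.17. On the log2(FPKM + 1) scale, which understates the change of low genes, the difference was 2.66 ± 0.31 (SE, limma adjusted p = 1.46e-05). In bulk tumours a change in the share of a cell type and a change of RNA per cell cannot be told apart.

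H2-T22 had 63.1, 63.4, 72.1, 72.7 and 75.9 FPKM in mutant anti-PD-1 tumours, against 21.1, 28.6, 58.3, 24.5 and 16.8 FPKM in mutant PBS tumours. Its levels were 23.8, 27.7, 21.1, 45.6 and 24.8 FPKM in vector anti-PD-1 tumours, against 26.1, 21.4, 20.1, 14.9 and 15.2 FPKM in vector PBS tumours. The mutant anti-PD-1 tumours lay close together and above every other tumour. H2-T10, its near copy, had 11.2, 12.5, 14.7, 15.2 and 15.3 FPKM in mutant anti-PD-1 tumours, against 4.93, 5.48, 11.2, 6.24 and 3.57 FPKM in mutant PBS tumours. In vector tumours H2-T10 had 3.65, 5.79, 4.32, 9.66 and 4.64 FPKM with anti-PD-1, against 4.71, 6.56, 4.65, 4.14 and 4.25 FPKM with PBS. Mutant PBS replicate 3 reached the lowest mutant anti-PD-1 tumour, so these groups overlap for H2-T10. The differences between mutant anti-PD-1 and mutant PBS tumours were 1.39 ± 0.24 for H2-T22 and 1.13 ± 0.23 for H2-T10 (SE, limma adjusted p = 0.000321 and 0.00139). H2-T22 stood at 4.98 times H2-T10 in the median mutant anti-PD-1 tumour, and at 4.72, 4.88 and 3.6 times in mutant PBS, vector anti-PD-1 and vector PBS tumours, with overlapping ranges.

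Of the Q region genes, H2-Q4 had the highest level of the 8 members in every tumour. It had 193.5, 200.8, 227, 251 and 229 FPKM in mutant anti-PD-1 tumours, against 100.7, 112, 192.5, 91.6 and 70.8 FPKM in mutant PBS tumours. Vector tumours had 36.0, 114, 79.4, 155 and 96.8 FPKM of H2-Q4 with anti-PD-1, against 74.3, 76.2, 66.1, 55.4 and 73.5 FPKM with PBS. The low value among vector anti-PD-1 tumours is that of replicate 1, 1 of the 3 least correlated libraries, and mutant PBS replicate 3 all but reached the mutant anti-PD-1 range. H2-Q6 had 51.1, 48.9, 30.4, 32 and 35.6 FPKM in mutant anti-PD-1 tumours, against 9.13, 11.9, 22.8, 10.3 and 6.47 FPKM in mutant PBS tumours. With anti-PD-1 the vector tumours had 3.71, 10.8, 8.86, 18.0 and 9.04 FPKM of H2-Q6, against 8.34, 7.30, 7.41, 5.51 and 5.32 FPKM with PBS. No mutant PBS tumour reached the mutant anti-PD-1 range of H2-Q6. H2-Q7 was low, with 5.50, 3.87, 2.92, 2.96 and 2.58 FPKM in mutant anti-PD-1 tumours, against 1.07, 1.12, 1.5, 0.832 and 0.726 FPKM in mutant PBS tumours. Levels of H2-Q7 in vector tumours were 0.594, 1.19, 0.611, 1.61 and 0.931 FPKM with anti-PD-1, against 0.921, 0.699, 0.574, 0.503 and 0.576 FPKM with PBS. The mutant anti-PD-1 tumours were above all others for H2-Q7 as well. Between mutant anti-PD-1 and mutant PBS tumours the log2 differences were 1.06 ± 0.30 for H2-Q4, 1.79 ± 0.29 for H2-Q6 and 1.2 ± 0.14 for H2-Q7 (SE, limma adjusted p = 0.0122, 0.000165 and 1.37e-05).

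H2-M3, which presents formylated peptides, had 42.0, 46.2, 48.8, 49.3 and 53.6 FPKM in mutant anti-PD-1 tumours, against 18.7, 26.1, 41.7, 21.6 and 16.2 FPKM in mutant PBS tumours. It had 10.8, 23.6, 16.9, 32.2 and 21.0 FPKM in vector anti-PD-1 tumours, against 21.0, 18.3, 18.5, 17.6 and 17.3 FPKM in vector PBS tumours. Mutant PBS replicate 3 again lay just under the lowest mutant anti-PD-1 tumour. The difference was 1.02 ± 0.24 (SE, limma adjusted p = 0.00368), the smallest among the 8.

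Cd1d1, the CD1d gene, had 9.04, 5.33, 2.84, 2.67 and 2.78 FPKM in mutant anti-PD-1 tumours, against 0.138, 0.516, 2.60, 0.215 and 0.452 FPKM in mutant PBS tumours. Levels in vector tumours were 0.205, 0.159, 0.495, 0.518 and 0.694 FPKM with anti-PD-1, against 0.307, 0.136, 0.459, 0.210 and 0.268 FPKM with PBS. Outside mutant anti-PD-1 only mutant PBS replicate 3 exceeded 1 FPKM. Cd1d1 therefore passed the filter on low values (at least 1 FPKM in at least 5 libraries) only through the group in which it was high. H2-Q7 reached 1 FPKM in 10 libraries and the other 6 members in all 20. The log2 difference for Cd1d1 was 1.72 ± 0.28 (SE, limma adjusted p = 0.000185), and the ratio of means was 5.78.

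**Figure D3:**
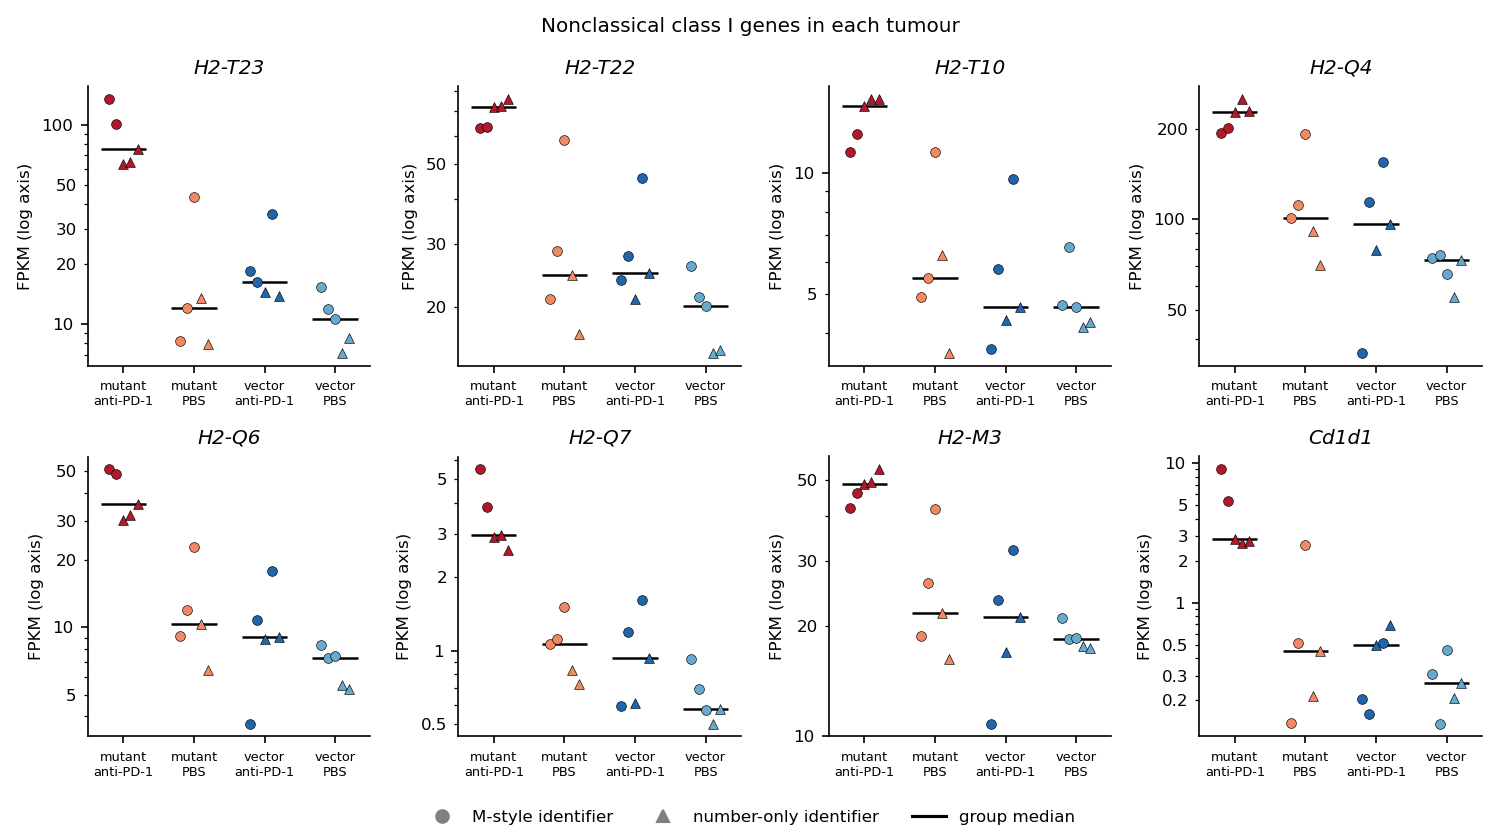
FPKM (log axis) of each member in the 20 tumours, by group, with 5 tumours a group in order of replicate from left to right, circles for animal identifiers of M and a number, triangles for numbers alone and bars for group medians. Mutant anti-PD-1 tumours lie above all mutant PBS tumours for 7 members, all but H2-T10, and 1 mutant PBS and 1 vector anti-PD-1 tumour stand high for most members.

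The comparison of anti-PD-1 with PBS in mutant tumours thus placed all 8 members higher with the antibody. The differences ran from 1.02 to 2.66 with a median of 1.29, against a median of -0.10 over all 13982 genes tested. Of all genes tested 30.5% were called in either direction, 15.9% higher and 14.6% lower, and 11.1% had every mutant anti-PD-1 tumour above every mutant PBS tumour, as 7 of the 8 members did. Cd1d1, which passed the filter only through this group, had to differ, so the count to set against these shares is 7 members called of 7, of which 6 had groups that did not overlap. Without the 3 least correlated libraries all 8 kept an adjusted p under the threshold of 0.05, with differences of 1.09 to 2.61 (22.1% of all genes called). Among number-only identifiers (3 mutant anti-PD-1 and 2 mutant PBS tumours) the 8 differences were 1.10 to 2.59. Among M-style identifiers (2 and 3 tumours) 4 members passed, with 22.4% of all genes called. These were H2-T23 at 2.75, H2-Q6 at 1.80, H2-Q7 at 1.34 and Cd1d1 at 2.12. H2-T22 at 0.93, H2-T10 at 0.72, H2-Q4 at 0.60 and H2-M3 at 0.67 did not pass (adjusted p = 0.12, 0.206, 0.433 and 0.283).

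In vector tumours no member differed between anti-PD-1 and PBS past the threshold (limma adjusted p = 0.724 to 0.895), and neither did any other of the 13982 genes (0% called, with 426 genes at an unadjusted p under 0.05). All 8 fitted differences were positive. The largest were 0.77 ± 0.31 for H2-T23 and 0.51 ± 0.24 for H2-T22 (SE), both at an unadjusted p under 0.05. Without vector anti-PD-1 replicate 4 the differences of H2-T10 and H2-M3 were -0.05 and -0.08. For Cd1d1 the difference was 0.14 ± 0.27, and it was -0.01 among M-style libraries.

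**Figure D4:**
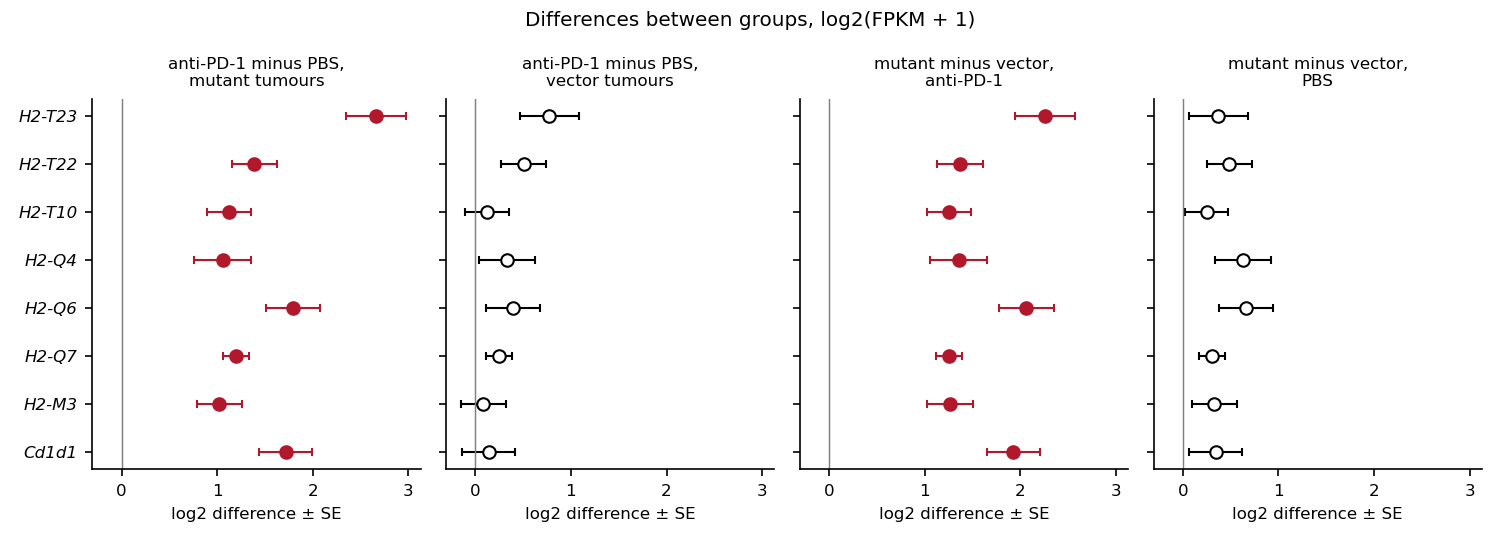
Log2 differences ± SE of each member in 4 comparisons from 1 limma fit to all 20 tumours (filled red, adjusted p under 0.05; open, not past it; zero is the grey line). All 8 are filled for anti-PD-1 against PBS in mutant tumours and for mutant against vector with anti-PD-1, from 1.02 to 2.66, and all are open in the other comparisons.

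Whether the response to anti-PD-1 was larger in mutant than in vector tumours was tested as an interaction. H2-T23 (difference of differences 1.89 ± 0.44, limma adjusted p = 0.0131), H2-Q6 (1.40 ± 0.40, adjusted p = 0.0358), H2-Q7 (0.95 ± 0.19, adjusted p = 0.00643) and Cd1d1 (1.58 ± 0.39, adjusted p = 0.0184) passed (SE). H2-T22, H2-T10, H2-Q4 and H2-M3 had differences of 0.89, 1.0, 0.72 and 0.94 that did not pass (adjusted p = 0.099, 0.0576, 0.279 and 0.0807). Against these 4 of 8 stand 9.35% of all genes called in either direction in the interaction, 7.4% higher and 1.95% lower. Cd1d1 was tested only because it was high in mutant anti-PD-1 tumours, and without it the count is 3 of 7. The calls depend on the libraries used and on the processing. With the H2-Q genes summed, the sum did not pass (0.87, limma adjusted p = 0.193). H2-Q4, which did not pass alone, made up most of that sum. The sum therefore cannot tell whether the calls of H2-Q6 and H2-Q7 rest on shared reads. With a pseudocount of 0.1, H2-T23 and H2-Q7 passed (1.93 and 1.30, adjusted p = 0.0249 and 0.029), and H2-Q6 and Cd1d1 did not (adjusted p = 0.0564 and 0.058). In that fit 6.27% of all genes were called. Among number-only identifiers all 8 passed (8.32% of all genes called). Among M-style identifiers only Cd1d1 did (8.27%), whose call is no support for the reason given above. Without the 3 least correlated libraries 1 did (H2-Q7 at 0.74, adjusted p = 0.0297), with 2.77% of all genes called. Without mutant PBS replicate 3, the tumour with high levels, 7 members passed, all but H2-Q4. Calls over all genes rose as well in that fit, to 13.4%. Which members pass thus changes with these choices, and the difference between members was not tested.

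Mutant tumours with anti-PD-1 were higher than vector tumours with anti-PD-1 for all 8 members, with no overlap between the groups for any of them. Cd1d1 again entered the test only through the mutant anti-PD-1 tumours, and the other 7 are the count to set against the shares of all genes. Of all genes tested 32.9% were called in either direction, 17.8% higher and 15.1% lower, and 12.1% had groups that did not overlap. H2-T23 differed by 2.26, H2-Q6 by 2.06, Cd1d1 by 1.92, H2-T22 by 1.37, H2-Q4 by 1.36, H2-M3 by 1.27, H2-Q7 by 1.26 and H2-T10 by 1.25 on the log2(FPKM + 1) scale (limma adjusted p = 5.69e-06 to 0.0021). In ratios of mean FPKM the range was 2.29 for H2-Q4 to 10.9 for Cd1d1. Among M-style identifiers H2-T22 at 1.0, H2-T10 at 0.88, H2-Q4 at 1.18 and H2-M3 at 1.08 did not pass (adjusted p = 0.086, 0.114, 0.115 and 0.0802). In that fit 28% of all genes were called.

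With PBS, mutant and vector tumours did not differ past the threshold for any member (limma adjusted p = 0.376 to 0.814), where 1.45% of all genes were called in either direction, 0.529% higher and 0.923% lower. All 8 fitted differences were positive, from 0.25 to 0.66. The Q region genes were at the upper end, with 0.66 ± 0.28 for H2-Q6 and 0.63 ± 0.29 for H2-Q4 (SE), and 3 members (H2-Q4, H2-Q6 and H2-Q7) had an unadjusted p under 0.05. Without the 3 least correlated libraries, which leaves these PBS tumours as they were but changes the estimate of spread, H2-Q6 and H2-Q4 passed at the same differences (adjusted p = 0.0379 and 0.0248). Calls over all genes rose as well in that fit, to 1643 of 13982 (11.8%), so the gain is not particular to these members. Without mutant PBS replicate 3 the differences were 0.02 for H2-T23 and 0.45 for H2-Q6.

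The order of levels among the members also differed between groups. FPKM is scaled by length, so levels are set side by side here. Shared reads and the BALB/c haplotype can still bias the level of a single gene, so the orders and ratios below are descriptions. In mutant anti-PD-1 tumours the means ran from H2-Q4 (220) through H2-T23 (87.8), H2-T22 (69.4), H2-M3 (48.0), H2-Q6 (39.6) and H2-T10 (13.8) to Cd1d1 (4.53) and H2-Q7 (3.57). In vector PBS tumours they ran from H2-Q4 (69.1) through H2-T22 (19.5), H2-M3 (18.6), H2-T23 (10.7), H2-Q6 (6.78) and H2-T10 (4.86) to H2-Q7 (0.655) and Cd1d1 (0.276). Neighbours whose tumours overlap, so that their order is not firm, were H2-T23 and H2-T22, H2-M3 and H2-Q6, and Cd1d1 and H2-Q7 in mutant anti-PD-1 tumours, and H2-T22 and H2-M3, H2-T23 and H2-Q6, and H2-Q6 and H2-T10 in vector PBS tumours. H2-T23 was at 0.996 of the level of H2-T22 in the median mutant anti-PD-1 tumour (0.884 to 2.14), against 0.472 (0.389 to 0.741) in mutant PBS tumours, and these ranges do not overlap. As a percentage of the classical gene H2-D1, H2-T23 stood at 8.79% (6.73% to 10.9%) in mutant anti-PD-1 tumours, against 2.23% (1.80% to 5.81%) in mutant PBS tumours. For H2-M3 the same percentages were 5.13% (3.21% to 6.23%), against 4.78% (4.10% to 5.61%), which overlap. H2-Q6 was about as far above H2-Q7 in every group, at median ratios of 10.8, 10.7, 9.71 and 10.4 in mutant anti-PD-1, mutant PBS, vector anti-PD-1 and vector PBS tumours.

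To ask which members follow interferon among tumours of 1 group, an index was formed as the mean log2(FPKM + 1) of 20 genes that interferon-gamma induces, among them Irf1, Gbp2 and Cxcl9. It averaged 5.71 ± 0.47 in mutant anti-PD-1, 3.94 ± 0.95 in mutant PBS, 3.37 ± 0.88 in vector anti-PD-1 and 2.60 ± 0.30 in vector PBS tumours (SD, n = 5 each). The tumours that stood high for the members also had the highest index of their groups, at 5.32 in mutant PBS replicate 3 and 4.62 in vector anti-PD-1 replicate 4. A slope on the index was then fitted beside the group means. It passed for 6 of the 8 members, where 3.52% of all 13962 genes outside the index were called in either direction, 3.47% with a positive and 0.0573% with a negative slope. Per log2 unit of the index the slopes were 0.56 ± 0.12 for H2-T23, 0.55 ± 0.09 for H2-Q6, 0.54 ± 0.11 for H2-Q4, 0.49 ± 0.07 for H2-T22, 0.48 ± 0.07 for H2-M3 and 0.45 ± 0.07 for H2-T10 (SE, limma adjusted p = 0.0111, 0.00278, 0.00852, 0.000344, 0.000412 and 0.00119). H2-Q7 at 0.12 ± 0.07 and Cd1d1 at 0.20 ± 0.15 did not pass (adjusted p = 0.28 and 0.373).

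Correlations of deviations from the group means describe how far a relation over the 20 tumours depends on a few of them. Unlike the slopes, they hold no term for identifier style, so they do not measure quite the same relation. H2-M3 followed the index most closely over the 20 tumours (Pearson r = 0.870, Spearman rho = 0.671, unadjusted permutation p within groups 0.00063 and 0.00693), and r was 0.742 without the 2 tumours farthest out, mutant PBS replicate 3 and vector anti-PD-1 replicate 4. H2-T10 had r = 0.825 and rho = 0.732 (permutation p = 0.00076 and 0.00143) and kept r = 0.628 without them. H2-T22 (0.779, then 0.535), H2-Q4 (0.774, then 0.597) and H2-Q6 (0.712, then 0.457) moved further. H2-T23 had r = 0.597 and rho = 0.412 (permutation p = 0.0319 and 0.11), and r fell to 0.148 without those tumours. Its slope did not pass without mutant PBS replicate 3 (0.37, limma adjusted p = 0.0958), nor without the style term (0.52, adjusted p = 0.115). Without the 3 least correlated libraries, in contrast, its slope was 0.86 ± 0.06 (SE, limma adjusted p = 1.12e-06), where 9.65% of all genes were called. Among number-only libraries, which hold neither of the 2 tumours farthest out, its slope was 0.68 ± 0.13 (SE). It did not pass there (adjusted p = 0.377), and 0% of all genes were called. Under median scaling the slopes of H2-T23 (0.51, adjusted p = 0.139) and H2-Q4 (0.40, adjusted p = 0.0701) did not pass, with 1.12% of all genes called. With the H2-Q genes summed, the sum, made up mostly of H2-Q4, passed (0.55, limma adjusted p = 0.00715). The slope of H2-Q4 also did not pass without mutant PBS replicate 3 (0.53, limma adjusted p = 0.0579), nor without vector anti-PD-1 replicate 4 (0.52, adjusted p = 0.05). For H2-Q7 and Cd1d1 r was 0.268 each, against a median r of 0.277 over all genes. In all 16 such relations were computed, 8 members with 2 indices.

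**Figure D5:**
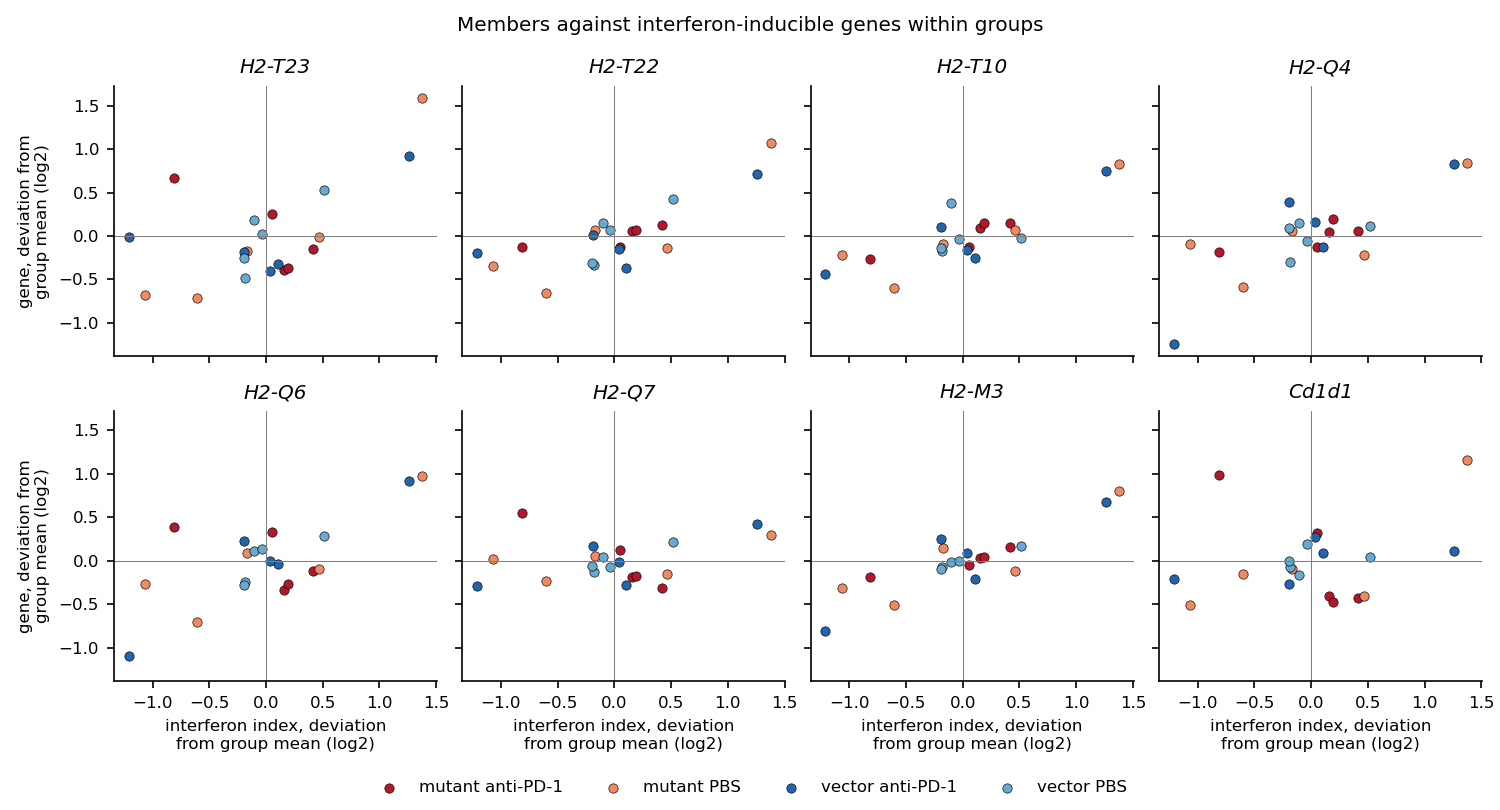
Deviation of each member from its group mean (vertical, log2) against that of the interferon-gamma index (horizontal, log2), 1 point a tumour, coloured by group. H2-M3, H2-T10 and H2-T22 rise along the index, while 1 mutant anti-PD-1 tumour (replicate 1, index deviation -0.81) lies high for H2-T23, H2-Q6, H2-Q7 and Cd1d1 and low for H2-T22, H2-T10, H2-Q4 and H2-M3.

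Within the mutant anti-PD-1 group the members fell into 2 patterns. Replicate 1 had the lowest interferon-gamma index of the group, at 4.90 against 5.76 to 6.13, and the lowest levels of H2-T22, H2-T10, H2-Q4 and H2-M3. That same tumour had the highest levels of H2-T23, H2-Q6, H2-Q7 and Cd1d1, followed in each case by replicate 2. An index of type I interferon genes, described in the next paragraph, was not lowest in replicate 1. It was 5.08 there, against 5.27 in replicate 5 and 4.39 to 4.76 in replicates 2 to 4. Replicates 1 and 2 are the M-style libraries of this group, and both are among the 3 least correlated libraries. The patterns cannot be told apart from identifier style or from what sets these libraries apart. Replicates 1 and 2 also had the highest sums of macrophage markers (4070 and 3420 FPKM against 1600 to 1950 in the other 3), B cell markers (7.82 and 7.03 against 1.65 to 3.92), fibroblast markers (2340 and 1480 against 268 to 335), NK cell markers (17.5 and 14.0 against 6.97 to 10.6) and T cell markers (115 and 82.1 against 70.1 to 71.8). The same held for endothelium markers (120 and 85.7 against 29.9 to 37.0) and, at low levels, liver markers (0.779 and 1.74 against 0.379 to 0.576). Epithelium markers were lowest in both (1.84 and 2.86 against 4.86 to 7.95). The remaining sums did not place both tumours highest. These were dendritic cell (18.0 and 22.3 against 15.9 to 20.7 FPKM), neutrophil (585 and 201 against 24.1 to 213) and skeletal muscle markers (165 and 1550 against 90.2 to 311). The part of these cells in the levels was not tested. Over the 15 tumours of the other groups r with the index was 0.670 to 0.887 for all 8 members, H2-Q7 (0.679) and Cd1d1 (0.670) at the low end. No r over all genes was computed for these 15 tumours. In that subset the slopes of the same 6 members passed, and those of H2-Q7 and Cd1d1 did not (limma adjusted p = 0.0687 and 0.0829). Of all genes 6.77% were called in that fit, against 3.52% with all 20 tumours.

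An index of 20 genes known for their response to type I interferon, among them Isg15, Ifit1 and Mx1, gave another order. Its level was 4.80 ± 0.37 in mutant anti-PD-1, 3.27 ± 0.64 in mutant PBS, 3.35 ± 0.30 in vector anti-PD-1 and 3.19 ± 0.39 in vector PBS tumours (SD, n = 5 each). H2-T23 followed this index most closely (r = 0.867, rho = 0.798, permutation p = 0.00029 and 0.00019) and kept r = 0.747 without the 2 tumours farthest out. Its slope was 1.06 and that of H2-T22 was 0.70 (limma adjusted p = 0.00428 and 0.033), and the other 6 members did not pass. Calls over all genes were fewer as well, at 1.53% against 3.52% with the interferon-gamma index. H2-M3, the closest to the interferon-gamma index, had r = 0.674 here. The difference between the 2 indices was not tested, and both come from the same tumours.

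By likeness of the group-centred values over 20 libraries, the genes nearest to H2-T22 were the immunoproteasome subunit Psmb9 (r = 0.941), the peptide transporter subunit Tap2 (0.939) and the interleukin receptor chain Il2rb (0.939). H2-T10 was nearest to Scimp, Tap2 and Psmb9 (0.896, 0.894 and 0.882), and H2-M3 to the integrin Itgal, the complement protease C1s1 and Tap1 (0.945, 0.945 and 0.944). Nearest to H2-T23 were Pla2g16 (0.945), the immunoproteasome subunit Psmb8 (0.942) and Map4k1 (0.933). H2-Q4 was nearest to Sp140, H2-Q10 and C1s1 (0.939, 0.935 and 0.934), and H2-Q6 to H2-Q5, Naaa and the integrin chain Itgb2 (0.942, 0.926 and 0.919). The values of H2-Q5 and H2-Q10 can share reads with these members. H2-Q7 had lower likeness, to H2-T-ps, Cybc1 and BC005537 (0.878, 0.874 and 0.871). Cd1d1 was nearest to the immunoglobulin kappa constant gene Igkc (0.960), Hsd11b1 (0.960) and Fyb (0.951). Among themselves the members ranged from r = 0.947 for H2-Q4 with H2-M3, which share almost no windows, to 0.239 for H2-T10 with Cd1d1.

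The rest of the class I pathway gives the setting. Of 17 classical class I and peptide loading genes 14 were higher in mutant anti-PD-1 than in mutant PBS tumours (median log2 difference 1.06), 0 passed in vector tumours (limma, 6 at an unadjusted p under 0.05), and 9 had a positive slope on the interferon-gamma index. H2-D1 averaged 995 ± 180.4 FPKM in mutant anti-PD-1 and 511 ± 143 FPKM in mutant PBS tumours, and B2m, the shared light chain, averaged 3808 ± 276 and 2107 ± 632 FPKM (SD, n = 5 each). Their differences were 1.05 ± 0.17 and 0.94 ± 0.17 (SE, limma adjusted p = 0.000165 and 0.000509). None of the 17 passed the interaction (limma, 5 at an unadjusted p under 0.05), and the closest was the immunoproteasome subunit Psmb8 at 1.34 (adjusted p = 0.0541). In the list of other class Ib and class I-like genes 27 were in the files and 13 were tested, of which 9 were higher and 1 lower (median 0.84). H2-T24 was at 2.45 ± 0.50 and Mr1, which presents vitamin B metabolites, at 0.92 ± 0.17 (SE, adjusted p = 0.00138 and 0.000758). Their interactions were 2.54 and 1.10 (adjusted p = 0.0309 and 0.0109). Mr1 passed the filter only through mutant anti-PD-1 tumours, where its lowest level was 1.27 FPKM, against at most 0.849, 0.913 and 1.07 FPKM in mutant PBS, vector anti-PD-1 and vector PBS tumours. Among 20 interferon-gamma genes 17 and among 20 type I genes 19 were higher in mutant anti-PD-1 than in mutant PBS tumours. Ciita and Ido1 of the interferon-gamma genes passed the filter only through mutant anti-PD-1 tumours.

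Of 11 genes of receptors and cells that read the nonclassical molecules, 8 were tested. Klrc1, Klrc2, Klrk1, Cd8a and Cd160 passed the filter only through mutant anti-PD-1 tumours and so had to differ, and no count over the 8 is given as a result. The 3 with enough libraries outside that group, Klrd1, Pirb and Lilrb4a, rose in mutant anti-PD-1 against mutant PBS tumours and passed the interaction. Klrc1, which encodes NKG2A, the inhibitory partner for Qa-1, averaged 14.7 ± 4.23 FPKM in mutant anti-PD-1 and 1.66 ± 2.28 FPKM in mutant PBS tumours (SD, n = 5 each), a log2 difference of 2.95 ± 0.31 (SE, limma adjusted p = 8.83e-06). Klrd1, which encodes CD94, averaged 21.1 ± 4.68 and 2.45 ± 3.68 FPKM (difference 3.30 ± 0.35, adjusted p = 8.83e-06). In vector tumours Klrc1 averaged 0.878 ± 0.640 FPKM with anti-PD-1 and 0.405 ± 0.230 FPKM with PBS, and did not pass (adjusted p = 0.724). These genes are expressed by NK cells and CD8 T cells, and the NK and T cell marker sums were higher in the same tumours. Their part in the levels was not tested. Trdc, the constant gene of the gamma delta T cell receptor delta chain, averaged 0.71 ± 0.299 FPKM in mutant anti-PD-1 and 0.149 ± 0.20 FPKM in mutant PBS tumours. Zbtb16, the transcription factor of NKT cells, averaged 0.362 ± 0.250 and 0.0617 ± 0.0541 FPKM. Both stayed under the filter on low values and were not tested.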

How the data were processed

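RNA of 20 tumours, 5 a group, was sequenced by the authors. Each deposited file holds 1 value per gene, taken as FPKM: per the submitters' processing notes Cuffnorm was used, with FastQC, STAR 2.5, DESeq and the mm10 build, and the values are never negative and not whole. The sources used here give neither annotation, strand, multi-mapping nor library scaling. No unit stands in the headers. At the best step between 13% and 31% of low values were whole reads within 5%, so depth stays unknown. The files listed 55335 genes, of which 55154 matched a GENCODE vM21 symbol, and 1 file had 10 empty extra columns. No pair of libraries was identical (highest Spearman value 0.983).

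Values were tested as log2(FPKM + 1), since the count test named first in the design needs counts. The low-value filter (1 FPKM or more in 5 or more libraries) left 13982 genes. limma 3.58.1 (R 4.3.3, trend on mean level) used the 20 libraries together, with 4 group means and identifier style as covariate. Benjamini-Hochberg adjustment ran over all genes (threshold 0.05). Correlations used 100000 permutations within groups, two-sided, with no term for identifier style (Python 3.11.15, numpy 2.4.6, pandas 2.3.3). Coding sequences were aligned with Biopython 1.88. Named are the 8 members in every library, up to 4 genes of a context list with the smallest p, and the 3 genes with the highest Pearson r to each member (predicted genes left out). Further context genes were named for their role, after their values were seen. Members and lists were chosen with earlier results of these data known. Replicate numbers follow deposition order and only name a tumour. Alternatives are given in the closing section.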

Additional observations from a re-analysis of the deposited data

Results flagged for a closer look

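In 6 of the 32 groups of 5 values (8 members in 4 groups) 1 tumour stood apart by Dixon's ratio, its gap to the nearest other tumour taking over 0.71 of the range. The cut is made for about 1 such group in 20 among independent values with a normal spread. The members move together over the same tumours, so the 6 of 32 cannot be set against that rate. Mutant PBS replicate 3 was set apart for H2-T23 (43.2 FPKM, against 7.95 to 13.6 in the other 4), H2-T22 (58.3, against 16.8 to 28.6) and Cd1d1 (2.60, against 0.138 to 0.516). Its T cell marker sum was 34.3 FPKM, against 1.53 to 7.52 in the other mutant PBS tumours. It was also highest of its group for skeletal muscle (1010 against 0.59 to 189), dendritic cell (14.6 against 1.99 to 4.42), NK cell (6.09 against 0.722 to 1.92) and fibroblast markers (389 against 68.5 to 164). Macrophage, B cell and endothelium sums were highest in it too. Neutrophil and liver sums were not, and the epithelium sum was lowest. The part of these cells was not tested. Vector anti-PD-1 replicate 4 was set apart for H2-T23 (35.8, against 13.8 to 18.4) and H2-T22 (45.6, against 21.1 to 27.7). Vector PBS replicate 2 was set apart for H2-T10 (6.56, against 4.14 to 4.71), a gene that shares 38.3% of its 50-base windows with H2-T22, for which that tumour was not set apart.

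Responses to anti-PD-1 that differed between mutant and vector tumours by the interaction test were those of H2-T23 (1.89), H2-Q6 (1.40), H2-Q7 (0.95) and Cd1d1 (1.58), as log2 differences of differences. Cd1d1 was tested only because it was high in mutant anti-PD-1 tumours, so its call is no support. H2-Q6 lost its call in 17 of 33 alternatives.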

How the results depend on the processing

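Over 1320 values of single members under alternative settings, 1239 kept their direction and side of the threshold, 51 lost a call, 24 gained one and 6 reversed. With anti-PD-1 against PBS in mutant tumours, and with mutant against vector under anti-PD-1, all 8 members passed in every alternative run except among M-style libraries alone, where 4 passed in each comparison (22.4% and 28% of all genes called). Leaving out 1 replicate gave 8 to 8 members in both, 0 to 0 in the comparisons of anti-PD-1 with PBS in vector tumours and of mutant with vector under PBS, 3 to 7 in the interaction and 4 to 6 for the slope on the interferon-gamma index. Under PBS, mutant against vector gave 4 members with array weights (19.4% of all genes called) and 2 without the 3 least correlated libraries (11.8%), against 1.45% as reported. The interaction, 4 as reported, gave 2 at a pseudocount of 0.1 (6.27% of all genes called), 8 with array weights (23%), 1 without the 3 least correlated libraries (2.77%), 1 in M-style libraries (8.27%), 8 in those with a number alone (8.32%), 2 with the families summed (9.35%) and 7 without mutant PBS replicate 3 (13.4%). H2-Q6 lost the interaction in 17 of 33 alternatives. The slope, 6 as reported, gave 3 among M-style libraries (1.12% of all genes called), 0 among number-only libraries and 2 with the type I index (1.53%). In number-only libraries 0% of all genes were called, so the 0 says nothing of the members. The slope gave 4 under median scaling (1.12%) and 7 with the families summed (3.47%), where the H2-Q sum stands for 3 members. H2-Q4 made up most of that sum, so the counts with the families summed do not show H2-Q6 or H2-Q7 alone. Reversed were, for anti-PD-1 against PBS in vector tumours, H2-T10 (-0.055, with 0.2574 the highest value when 1 replicate is left out) and H2-M3 (-0.078, highest 0.3118) without vector anti-PD-1 replicate 4, and Cd1d1 with a muscle covariate (-0.056) and among M-style libraries (-0.0099). The slope of Cd1d1 reversed among number-only libraries (-0.23) and without mutant PBS replicate 3 (-0.056, highest 0.3379). The cause of these changes was not tested. A fit of only the groups compared does not exist for the interaction and the slope, which use all 4. No paired analysis was possible because the labels give no replicate numbers. Unknown depth limits what can be said of H2-Q7 and Cd1d1, whose levels lie near 1 FPKM.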

Other observations

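Cd1d2, the neighbour copy of Cd1d1, averaged 0.822 ± 0.307 FPKM in mutant anti-PD-1, 0.181 ± 0.145 in mutant PBS, 0.138 ± 0.0544 in vector anti-PD-1 and 0.132 ± 0.131 in vector PBS tumours (SD, n = 5 each). H2-T3, the thymus leukaemia antigen gene, reached 0.957 FPKM in 1 mutant anti-PD-1 tumour, and was listed at 0 in 1 of 5 mutant PBS, all 5 vector anti-PD-1 and 3 of 5 vector PBS tumours. Neither gene passed the filter on low values.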
